A study of Saccharomyces cerevisiae with 7 samples.

Results

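The 10 genes described here serve high-affinity iron acquisition in Saccharomyces cerevisiae: FET3, FTR1, FIT1, FIT2, FIT3, ARN1, SIT1, ENB1, FRE2 and HMX1. They were chosen by gene symbol from 5656 genes with a probe set that the platform annotation gives to a single gene. All 10 were found, each with 1 such probe set, and all 10 passed the filter on low values, an intensity above 12 on at least 2 arrays. HMX1 is the exception to the common label, since it encodes an enzyme of heme breakdown and not an uptake protein.

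Transcripts were measured on 7 one-colour Affymetrix yeast arrays, each hybridised with RNA of a chemostat culture, in which the feed of a limiting nutrient fixes how fast cells grow. The strain in every group was CEN.PK113-7D, which is haploid, of mating type a and widely used in physiology. Cultures received 10 g/l galacturonic acid (the sugar acid that pectin is made of) on 2 arrays, 0.23 g/l galactose on 2 arrays and no addition on 3 control arrays. Glucose at 7.5 g/l limited growth in all groups, which were kept aerobic at pH 3.5 and 30 °C and diluted at 0.1 per h. The study asked what galacturonic acid does to yeast. The labels do not state the iron content of the medium.

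High-affinity iron uptake in yeast follows 2 routes. In the reductive route, surface reductases of the Fre family turn ferric into ferrous iron, which the ferroxidase Fet3 and the permease Ftr1 carry across the plasma membrane as a complex. In the other route, transporters of the Arn family import iron bound to siderophores, small chelators that other microbes secrete, and the Fit mannoproteins of the cell wall help to retain them. The transcription factor Aft1 turns on genes of both routes, and HMX1, when cells lack iron.

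Signs of RNA quality set galactose array 2 apart for both genes checked, and galactose array 1 for ACT1 only. The ratio of 3' to 5' signal for ACT1 (actin) was 1.34 and 1.33 on the galacturonic acid arrays, 19.8 and 306 on galactose arrays 1 and 2, and 1.07 to 1.23 on the control arrays. For SPT15 (TATA-binding protein) it was 2.04 and 2.28, then 2.76 and 124, and 1.66 to 2.75. The titles of the galactose samples also carry a different series of codes in brackets from the other 5, and do not say what the codes mark. Code series and galactose cannot be told apart. As a check of mating type, all 7 markers of MATa cells lay above 12 on the galacturonic acid and galactose arrays and 6 of 7 on all control arrays. Their summed intensity was 6466.1 to 8020.7 with galacturonic acid, 4000.9 to 4492.7 with galactose and 1579.2 to 2234.5 in control. The 4 MATalpha markers summed to 974.7 to 1019.6, 90.1 to 237.5 and 75.3 to 113.2. Of these 4, 3 lay above 12 on both galacturonic acid arrays, 2 on both galactose arrays and 3 on all control arrays. MF(ALPHA)1 made up most of the sum with galacturonic acid (912.4 and 844.7). STE3 and SAG1 lay above 12 on every array, and MF(ALPHA)2 lay below 12 on every array. The part of these values in the iron results was not tested.

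With galacturonic acid, no member passed the test against control. FIT2 and FIT3 stood lowest relative to control, at 2.56 and 2.85 times below it, while HMX1 and SIT1 stood highest, at 1.66 and 1.61 times above it. For FET3, FTR1, FRE2 and ENB1 the log2 differences lay between -0.04 and 0.38. Calls are a Benjamini-Hochberg adjusted p under 0.05 in a limma fit of log2 intensity, with values raised to a floor of 12, over 5220 tested genes. Under that rule 0 of 10 members passed, against 2.32% of all tested genes (0.881% higher and 1.44% lower). At an unadjusted p under 0.05 it was 1 member, FIT3, against 12.5% of all tested genes. Of the alternatives run, only limma's array weights called members, namely FIT2, FIT3 and HMX1, or 3 among 774 genes called in all.

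FET3 (YMR058W), the multicopper ferroxidase, read 286.3 and 199.6 with galacturonic acid, 205.0 and 21.4 with galactose, and 116.8, 320.6 and 215.2 in control. The galacturonic acid arrays fell inside the control range, and galactose array 2 lay far below every other array. The log2 difference between galacturonic acid and control was 0.25 ± 0.85 (SE; 95% interval -1.70 to 2.21, adjusted p = 0.96). That interval still allows a change of several fold either way.

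FTR1 (YER145C), the permease that pairs with Fet3, read 263.0 and 296.3 with galacturonic acid, 329.0 and 125.1 with galactose, and 148.3, 251.6 and 263.8 in control. The groups overlapped, and the mean with galacturonic acid was 280 ± 23.5 (SD, n = 2) against 221 ± 63.5 (SD, n = 3) in control. Its log2 difference was 0.38 ± 0.46 (SE, adjusted p = 0.824). RNA came from whole cultures, so fewer cells with a transcript and less of it per cell cannot be told apart here or below.

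FRE2 (YKL220C), a ferric reductase, was near the floor throughout, at 15.5 and 11.7 with galacturonic acid, 15.8 and 18.2 with galactose, and 13.7, 16.9 and 11.3 in control. With 1 of 2 galacturonic acid arrays and 1 of 3 control arrays below 12, its log2 difference of -0.04 ± 0.23 (SE) rests on values at the limit of measurement.

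**Figure D1:**
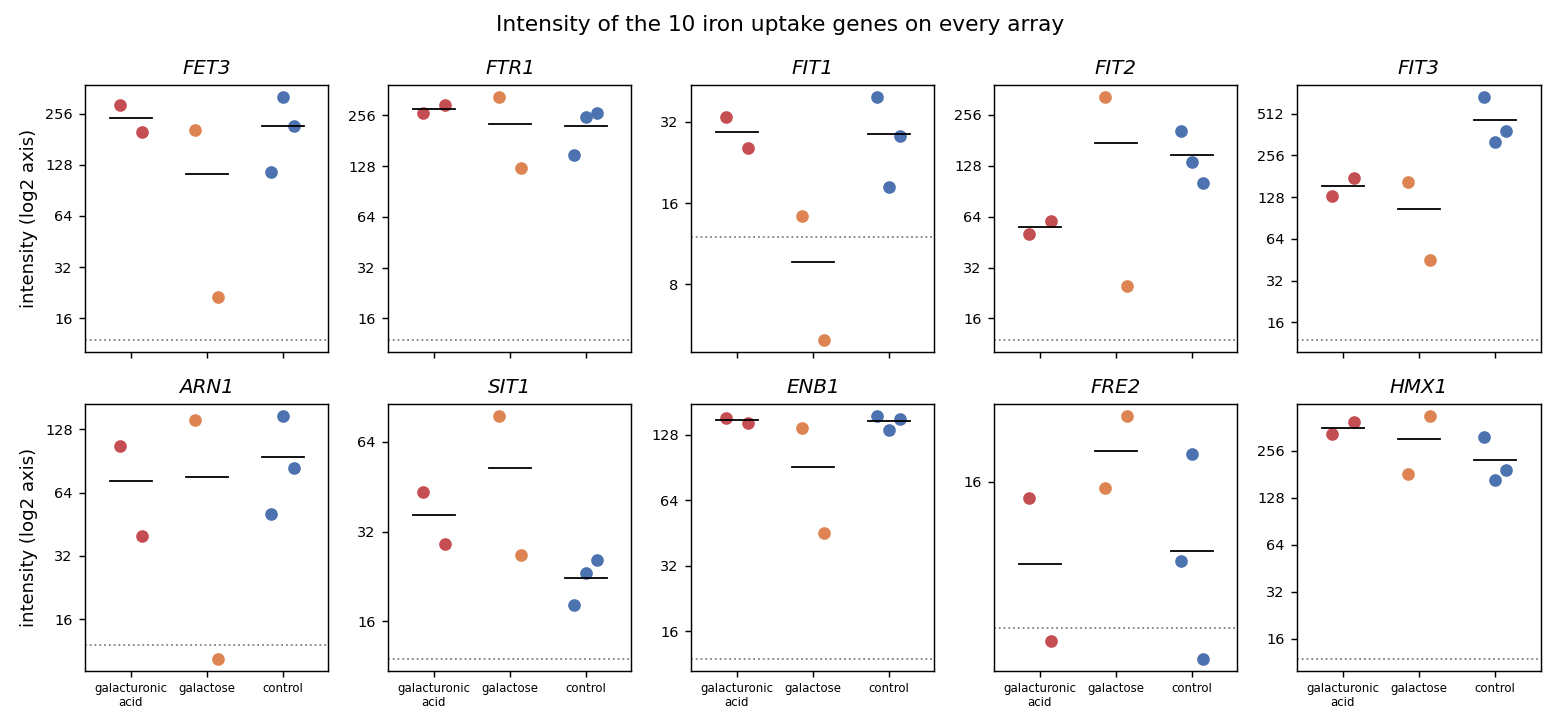
Intensity of each gene on a log2 axis (each panel has its own range) for the galacturonic acid (2), galactose (2) and control (3) arrays; points are arrays, bars are arithmetic means and the dotted line is the floor of 12. On both galacturonic acid arrays, FIT2 and FIT3 lie below all control arrays and SIT1 and HMX1 above. On galactose array 2, 7 of 10 genes lie below all control arrays, against 37.4% of tested genes, and 3 above, against 43.6%.

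The 3 FIT genes encode cell wall mannoproteins that help retain siderophore-bound iron, and they did not read alike. FIT3 (YOR383C) read 131.4 and 176.9 with galacturonic acid, 165.2 and 44.8 with galactose, and 675.2, 317.5 and 384.5 in control. Every array with an added sugar compound lay below every control array. Of all tested genes, 21.1% lay wholly below control with galacturonic acid and 16.4% with galactose. With galacturonic acid the log2 difference of FIT3 was -1.51 ± 0.57 (SE; 95% interval -2.82 to -0.21, unadjusted p = 0.028, adjusted p = 0.312). Leaving out any 1 array kept it between -1.74 and -1.20, with adjusted p from 0.0681 to 0.976.

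FIT2 (YOR382W) read 50.4 and 60.3 with galacturonic acid, 326.2 and 24.9 with galactose, and 205.2, 135.3 and 101.1 in control. Both galacturonic acid arrays lay below the control range, whereas the galactose arrays lay on opposite sides of it. The log2 difference with galacturonic acid was -1.36 ± 0.91 (SE, adjusted p = 0.612). The fit has 1 spread per gene for all groups, galactose included. With the galacturonic acid and control arrays alone the difference was the same and the adjusted p was 0.0826, and for FIT3 0.0685.

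FIT1 (YDR534C) was dimmer, at 33.2 and 25.5 with galacturonic acid, 14.3 and 5.0 with galactose, and 39.5, 18.4 and 28.3 in control. Unlike the other two, its galacturonic acid arrays fell inside the control range (log2 difference 0.09 ± 0.34 SE, adjusted p = 0.972). Whether FIT1 differs from FIT2 and FIT3 in its response was not tested. FIT2 and FIT3 are adjacent genes in the RefSeq table of assembly R64, followed there by the reductase gene FRE5, and no other pair of members is adjacent. FRE5 itself read at most 4.0 on any array.

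Among the siderophore transporters, SIT1 (YEL065W), which imports ferrioxamine-type siderophores, read 43.6 and 29.1 with galacturonic acid, 78.1 and 26.8 with galactose, and 18.2, 23.3 and 25.6 in control. All 4 arrays with an addition lay above all 3 control arrays, galactose array 2 only just. Of all tested genes, 20.0% lay wholly above control with galacturonic acid and 31.4% with galactose. The log2 difference of SIT1 was 0.69 ± 0.46 (SE, adjusted p = 0.61) with galacturonic acid and 1.05 ± 0.46 (SE, adjusted p = 0.144) with galactose. These comparisons share the control arrays.

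ARN1 (YHL040C), a transporter of ferrichrome-type siderophores, read 106.1 and 39.7 with galacturonic acid, 141.9 and 10.4 with galactose, and 50.8, 147.8 and 83.6 in control. Arrays of the same group differed by as much as the groups did: the highest control array was 2.91 times the lowest, and the higher galacturonic acid array 2.67 times the other. For ARN1 the log2 difference with galacturonic acid was -0.40 ± 0.97 (SE, adjusted p = 0.94).

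ENB1 (YOL158C), the enterobactin transporter, was the steadiest member outside galactose, at 152.4 and 145.3 with galacturonic acid and 155.7, 134.6 and 150.9 in control. The galactose arrays read 137.3 and 45.0. Its log2 difference with galacturonic acid was 0.02 ± 0.46 (SE; 95% interval -1.04 to 1.08).

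HMX1 (YLR205C), the heme oxygenase that frees iron from heme, read 329.9 and 388.8 with galacturonic acid, 181.5 and 426.8 with galactose, and 311.2, 166.7 and 193.0 in control. Both galacturonic acid arrays lay above all control arrays, by a small margin over control array 1. The log2 difference was 0.73 ± 0.44 (SE, adjusted p = 0.568).

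The members did not shift as a block with galacturonic acid. FIT2 and FIT3 lay wholly below control and SIT1 and HMX1 wholly above it, so 4 of 10 members had groups that did not overlap, against 41.1% of all tested genes (20.0% above and 21.1% below). The median log2 difference was 0.05 over the 10 members and -0.01 over all 5220 genes. Control cultures themselves split the members: on control array 1, FIT1, FIT2, FIT3, ENB1 and HMX1 were at their control maximum while FET3, FTR1, ARN1 and SIT1 were at their control minimum.

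**Figure D2:**
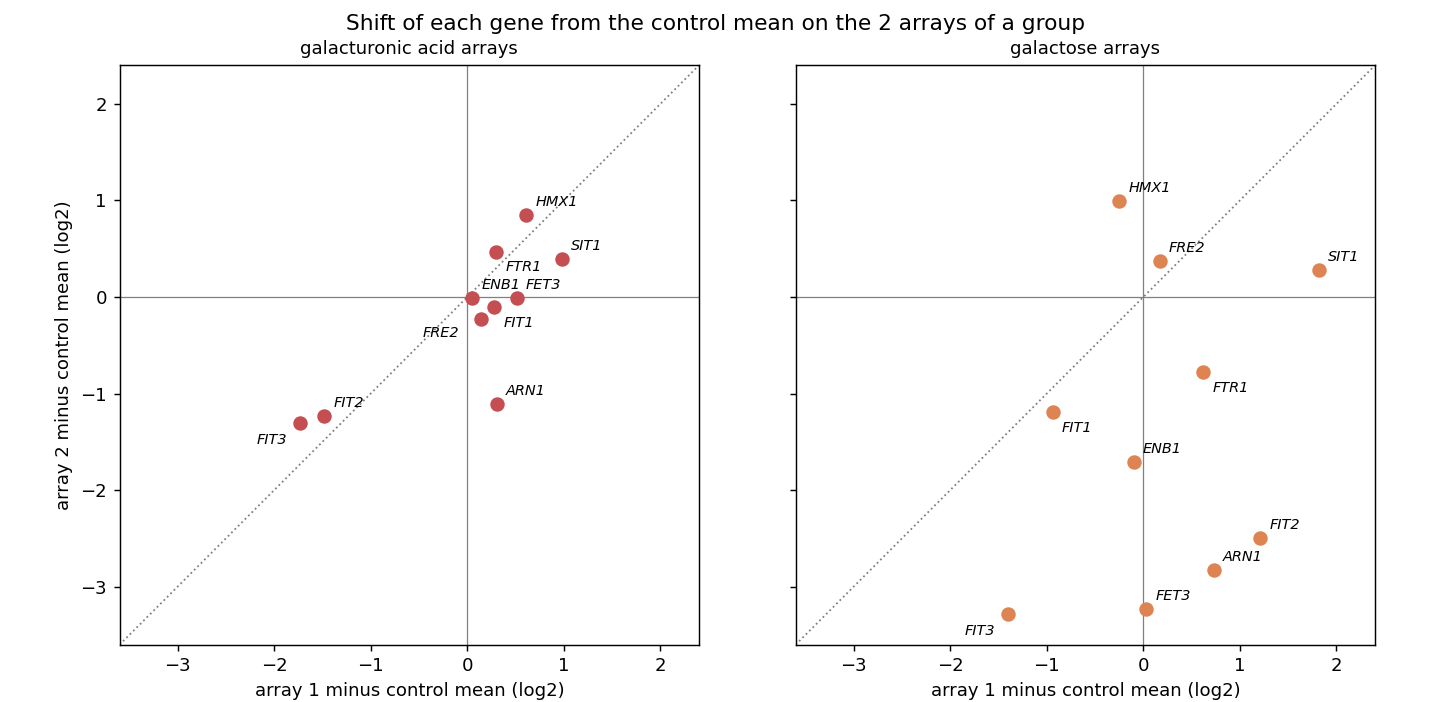
Log2 shift of each gene from the control mean on array 1 (horizontal) and array 2 (vertical) of the galacturonic acid group (left) and the galactose group (right); the dotted line marks equal shifts. FIT2 and FIT3 sit at -1.48 and -1.23 and at -1.73 and -1.30 on the galacturonic acid arrays, while the galactose arrays place FIT2 at 1.21 and -2.50 and FET3 at 0.03 and -3.23.

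With galactose, FIT3 was the only member to pass the test against control, and it was lower. Its level was 105 ± 85.1 (SD, n = 2) with galactose against 459 ± 190 (SD, n = 3) in control, a log2 difference of -2.34 ± 0.57 (SE, adjusted p = 0.0439). This is 1 of 10 members called, against 9.06% of all tested genes (4.75% higher and 4.31% lower), so the share is near the background. At an unadjusted p under 0.05 it was 2 members, FIT1 and FIT3, against 34.7%. The call was lost without control array 1, 2 or 3 (adjusted p = 0.136, 0.0974 and 0.125), without galacturonic acid array 1 or 2 (0.118 and 0.117) and without galactose array 2 (0.124, log2 difference -1.40), and kept without galactose array 1 (-3.28). It was also lost with no filter, the filter at the median level, array weights and only these 2 groups (adjusted p = 0.0971, 0.0538, 0.187 and 0.117).

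The galactose arrays disagreed about most members. On array 1, FTR1, FIT2 and SIT1 lay above all control arrays, against 51.6% of tested genes. FIT1 and FIT3 lay below all of them, against 21.0%, with the other 5 members inside the control range. On array 2, where the 3'/5' ratios were highest, 7 of 10 members lay below all control arrays, against 37.4% of tested genes, and SIT1, FRE2 and HMX1 lay above, against 43.6%. The log2 shifts on array 2 were -3.28 for FIT3 (coding length 615 bases), -3.23 for FET3 (1911), -2.83 for ARN1 (1884), -2.50 for FIT2 (462), -1.71 for ENB1 (1821), -1.19 for FIT1 (1587) and -0.78 for FTR1 (1215). Those of ARN1 and FIT1 rest on values below the floor, counted as 12. The shifts were 0.28 for SIT1 (1887), 0.37 for FRE2 (2136) and 0.99 for HMX1 (954). Without galactose array 1, the log2 differences of the members from control were these same shifts, which rest on array 2 alone. The part of RNA quality and of coding length in these values was not tested.

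Beyond FIT3, differences from control with galactose did not pass: FIT1 was at -1.06 ± 0.34 (SE, adjusted p = 0.0793), with galactose array 2 below the floor, FET3 at -1.60 ± 0.85 (adjusted p = 0.216) and ENB1 at -0.90 ± 0.46 (adjusted p = 0.20). ARN1, FIT2 and FTR1 were at -1.05, -0.65 and -0.08, while HMX1 and FRE2 were at 0.37 and 0.27. The groups did not overlap for FIT1, FIT3 and SIT1, or 3 of 10 members against 47.8% of all tested genes (31.4% above and 16.4% below). The median over the 10 members was -0.77, against 0.22 over all genes (0.13 after quantile normalisation and 0.04 after scaling to the 75th percentile). That median rested on galactose array 2: the member shifts from the control mean had a median of 0.10 on array 1 and -1.45 on array 2, against 0.32 and 0.06 over all genes. Scaling moved the split of calls over all genes: 248 were higher and 225 lower, but 131 and 281 after quantile normalisation and 100 and 326 after scaling to the 75th percentile. FIT3 kept its call under both.

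Set directly against galactose, galacturonic acid left no member past the threshold, against 13.1% of all tested genes (5.23% higher and 7.91% lower). The split of calls depended on scaling: 273 genes were higher and 413 lower, but 313 and 227 after quantile normalisation and 355 and 180 after scaling to the 75th percentile. At an unadjusted p under 0.05, 1 member passed, against 36.4% of genes. The smallest p belonged to FIT1, with a log2 difference of 1.15 ± 0.38 (SE, unadjusted p = 0.015, adjusted p = 0.0711). FIT1 and ENB1 read higher on both galacturonic acid arrays than on both galactose arrays and FRE2 lower, which is 3 of 10 members with groups that did not overlap, against 63.7% of genes (22.6% above and 41.1% below). FET3 was at 1.85 ± 0.94, ENB1 at 0.92 ± 0.51, FIT3 at 0.83 ± 0.62 and FIT2 at -0.71 ± 1.00 (SE; adjusted p = 0.187, 0.219, 0.362 and 0.632). The log2 differences depended on which galactose array was kept. Those of ENB1, FET3 and FIT3 were 1.73, 3.48 and 1.77 without galactose array 1, and 0.12, 0.22 and -0.12 without array 2. That of FIT2 was 1.15 without array 1 and -2.56 without array 2.

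**Figure D3:**
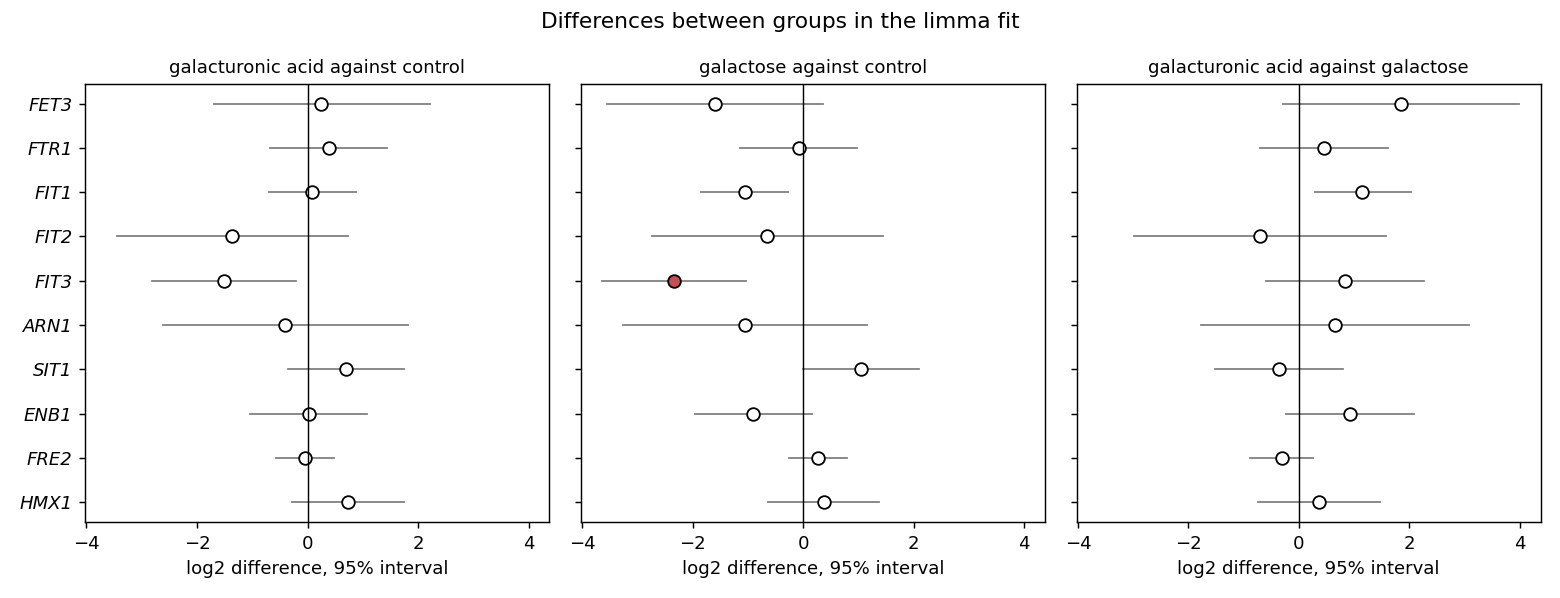
Log2 difference of each gene in the 3 comparisons, first-named group minus second, with the 95% interval of the limma fit (lines); a filled point passed an adjusted p of 0.05. FIT3 with galactose against control (-2.34) is the only filled point.

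The remaining iron genes were taken from 7 lists of 70 genes in all: other uptake genes, low-affinity uptake, vacuolar and mitochondrial transport, regulators, iron-sulfur cluster assembly, heme synthesis and iron-containing enzymes. All 70 were measured and 66 tested. Of these, 0 rose and 1 fell with galacturonic acid against control, 1 rose and 1 fell with galactose against control, and 5 were higher and 4 lower with galacturonic acid than with galactose. The background shares are the 2.32%, 9.06% and 13.1% given above. The median log2 differences of the 66 genes were 0.23, -0.10 and 0.29, against -0.01, 0.22 and -0.24 over all genes.

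Of the 8 other genes of reductive and siderophore uptake, 5 were tested, since FRE3, FRE5 and the transporter gene ARN2 were above 12 on at most 1 array. The surface reductase FRE1 read 17.6 and 18.7 with galacturonic acid, 91.3 and 48.7 with galactose, and 23.2, 42.1 and 33.5 in control. FRE4, another reductase of the family, read 15.3 and 20.6, then 60.1 and 100.1, and 37.5, 32.2 and 34.2 in control. For both genes the galacturonic acid arrays were lowest and the galactose arrays highest, without overlap. Of all tested genes, 41.1% read lower on both galacturonic acid arrays than on both galactose arrays, and 7.91% were called lower. Both were lower with galacturonic acid than with galactose (log2 differences -1.88 ± 0.42 and -2.13 ± 0.36 SE, adjusted p = 0.0292 and 0.0151), calls that both lost without either galacturonic acid array (adjusted p = 0.109 to 0.236) and FRE1 also without control array 2 or 3 (0.0599 and 0.068). Both calls were lost with only the 2 groups compared (0.158 for each) and with array weights (0.0872 and 0.0559), and that of FRE1 with no filter (0.0642). The differences were -1.29 and -1.47 with 16 added in place of the floor, and FRE4 was at -0.63 at a floor of 50 (adjusted p = 0.0914). Against control, neither passed with galacturonic acid (-0.82 ± 0.38 and -0.96 ± 0.33 SE, adjusted p = 0.436 and 0.245).

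Among 6 genes of vacuolar and mitochondrial transport, MRS4, a mitochondrial iron importer, was the exception. It read 76.7 and 86.2 with galacturonic acid, 16.6 and 4.0 with galactose, and 66.7, 62.3 and 56.1 in control. MRS4 was lower with galactose than in control (log2 difference -2.12 ± 0.30 SE, adjusted p = 0.0131) and higher with galacturonic acid than with galactose (2.53 ± 0.33 SE, adjusted p = 0.00823). Galactose array 2 lay below the floor, and the first call was lost without any 1 control or galacturonic acid array (adjusted p = 0.0575 to 0.0751), the second without either galacturonic acid array (0.0933 and 0.0931). The sizes moved with the floor, to -2.92 and 3.32 at a floor of 1 and to -0.30 and 0.70 at a floor of 50, where the first call was lost (adjusted p = 0.176). Array weights also ended the first call (0.0934), and fitting only the 2 groups compared ended the second (0.0951). No tested low-affinity uptake gene or regulator passed. FET4, of the low-affinity list, read at most 11.4 on any array and was not tested. SMF1, a manganese and iron transporter gene, was at 1.02 ± 0.31 (SE, adjusted p = 0.197) with galacturonic acid against control, a difference that passed without galactose array 1 (adjusted p = 0.0496) and with array weights (0.0129). BOL2 (also FRA2), which relays iron status to Aft1, was at 0.86 ± 0.32 (SE, adjusted p = 0.104) with galactose against control, and passed without galactose array 1 (0.0464).

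All 20 genes of iron-sulfur cluster assembly were tested, and 0 passed with galacturonic acid against control. Their median log2 difference there was 0.28, with 15 above and 5 below 0, against 2546 above and 2674 below over all genes. SSQ1, a mitochondrial chaperone of cluster transfer, was higher with galactose than in control (0.95 ± 0.21 SE, adjusted p = 0.0365), a call lost under both other scalings (0.0593 and 0.074), at a floor of 1, with 16 added, without the trend, with array weights and with only the 2 groups (0.0588 to 0.227), and without any 1 array except galactose array 1 (0.0525 to 0.121). Between galacturonic acid and galactose, NAR1 (cytosolic assembly) and YAH1 (the mitochondrial ferredoxin) were higher and SSQ1 lower, with log2 differences of 2.88, 1.54 and -1.30 (adjusted p = 0.0249, 0.0273 and 0.0185). YAH1 read 903.3 and 782.1 with galacturonic acid, 346.8 and 242.2 with galactose, and 431.8, 385.4 and 495.4 in control.

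In heme synthesis, 0 of 8 genes passed against control in either condition, and HEM3 (porphobilinogen deaminase) was higher with galacturonic acid than with galactose (1.44 ± 0.27 SE, adjusted p = 0.0193). HEM3 was dim, at 36.5 and 29.1 with galacturonic acid, and both galactose arrays lay below 12 and entered the fit at 12, so its log2 difference depends on the floor (1.94 at a floor of 1). Of 15 iron-containing enzymes, 2 lay above 0 and 13 below with galactose against control, where 0 passed, against 3118 above and 2102 below over all genes. The galactose arrays differed here: LEU1, LYS4, RLI1, CCP1, CYT1 and BIO2 lay above the control mean on array 1 and below it on array 2. ACO1, SDH2, ILV3, GLT1, CYC1, RIP1 and RNR2 lay below it on both arrays. LIP5 lay above it on both, and CTA1 below it on array 1 and above it on array 2. Among the 15 enzymes, CTA1, the peroxisomal catalase, read 216.2 and 301.2 with galacturonic acid, 791.1 and 1663.5 with galactose, and 1138.8, 876.9 and 1029.9 in control. CTA1 was lower with galacturonic acid than in control (-1.98 ± 0.38 SE, adjusted p = 0.0381) and than with galactose (-2.17 ± 0.41 SE, adjusted p = 0.0205). CYC1 (cytochrome c) was higher with galacturonic acid than with galactose (1.32 ± 0.33 SE, adjusted p = 0.039). None of the calls for SSQ1, NAR1, YAH1, HEM3, CYC1 and CTA1 between galacturonic acid and galactose held without either galacturonic acid array (adjusted p = 0.103 to 0.241), and the CTA1 call against control was lost without any 1 control or galacturonic acid array (0.141 to 0.487) and after scaling to the 75th percentile (0.0533) or with no filter (0.0984). Single control arrays also decided the calls between galacturonic acid and galactose of NAR1 and CYC1 (any of the 3), YAH1 and CTA1 (array 2 or 3) and HEM3 (array 3), with adjusted p of 0.0508 to 0.0824 without them, and galactose array 2 that of CYC1 (0.0791). With only the 2 groups compared all 6 of those calls were lost (0.121 to 0.172), and with array weights all but that of NAR1 (0.0515 to 0.116). With no filter those of NAR1, CYC1 and CTA1 were lost (0.0688, 0.0597 and 0.0524), with the median filter that of CYC1 (0.0527) and at a floor of 1 that of SSQ1 (0.0507). The NAR1 difference was 1.93 at a floor of 50, 3.89 without galactose array 1 and 1.86 without galactose array 2.

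**Figure D4:**
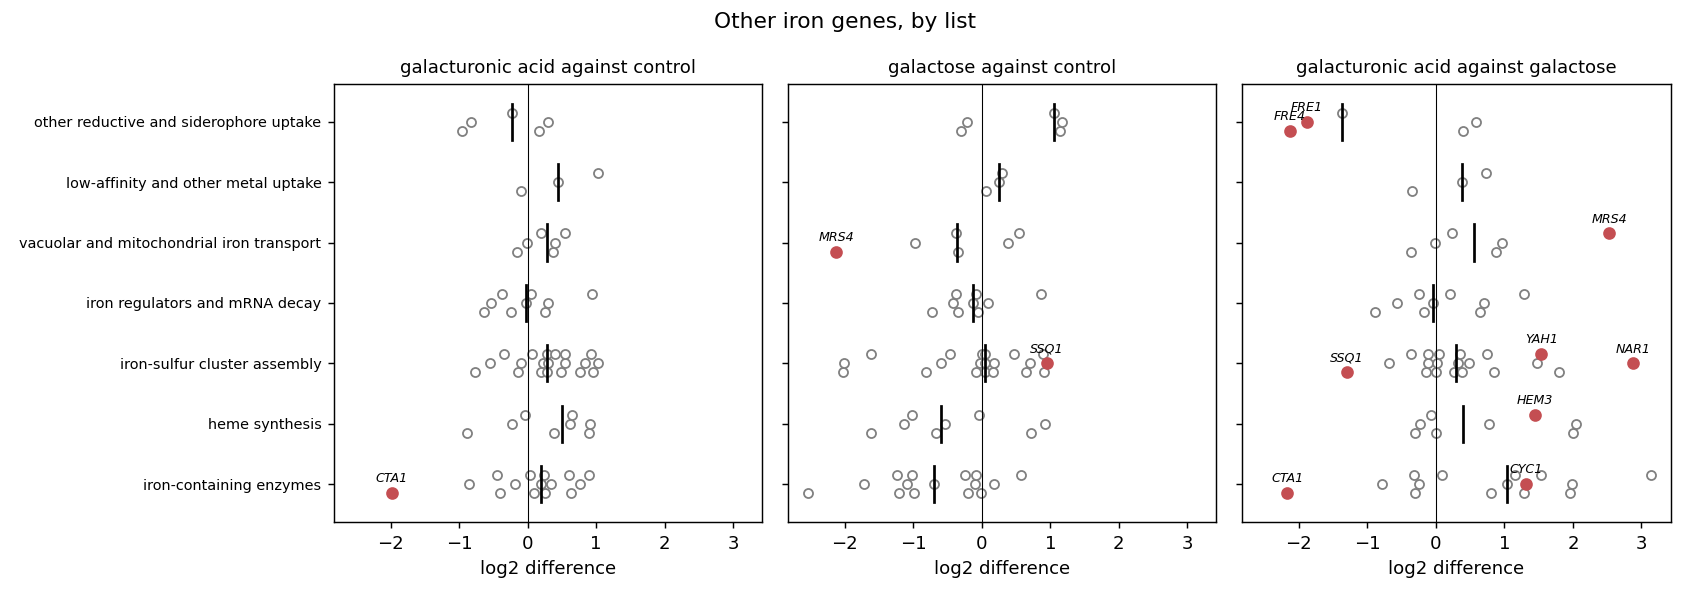
Log2 differences of the 66 tested iron genes outside the 10 members, by list (rows), in the 3 comparisons, first-named group minus second; each point is a gene, filled points passed an adjusted p of 0.05 and are named, and black bars are list medians. CTA1 is the only filled point with galacturonic acid against control.

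The array pattern of the members was compared with all other tested genes by Pearson's r over the 7 arrays, using the mean of the 10 centred log2 values. The members themselves did not share 1 pattern: against the mean of the others, r ran from -0.706 for HMX1 and -0.457 for FRE2 through 0.13 for SIT1 to 0.942 for ENB1. The 5 most alike were VMA16, PMT6, BIO2, HTB2 and GLC7, with r from 0.98 to 0.99 (HTB2 has a near-identical paralog and is uncertain). Each read lowest on galactose array 2, where the member mean was -1.18, against -0.02 to 0.39 on the other 6 arrays. The genes share these arrays, that low one included, and the r values are a description. On the 5 galacturonic acid and control arrays alone the most alike were PDX1, TMA108, MLC1, MPO1 and INP51, none of them in the first set. There the member mean spanned only -0.18 to 0.09, and 8 of 10 members had an r below 0 with the mean of the others, so that mean stands for no common pattern.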

How the data were processed

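Per the labels' protocols, culture broth was quenched in liquid nitrogen, and biotin-labelled cRNA was hybridised to Affymetrix yeast arrays. The authors deposited linear intensity values for 9335 probe sets; GCOS 1.2 is named per the submitters' processing notes, while the sources used here do not name the signal algorithm. The mean after leaving out 2% of values at each end was 150.1 on every array. The number of arrays limits the precision. Groups follow the treatment label. For the galactose arrays, the source name abbreviates galacturonic acid instead; title, description and treatment say galactose and were followed. Nothing says that cultures of a group were started separately, so p-values measure the spread between these arrays only.

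Genes were named from 6504 probe sets with 1 gene, all matched to RefSeq assembly R64, and the probe set with the highest mean log2 value stood for a gene. Values were raised to 12 and taken as log2. One limma 3.58.1 fit (R 4.3.3; lmFit, eBayes with trend) of all 7 arrays gave 3 comparisons, adjusted by Benjamini-Hochberg over 5220 genes. No 2 arrays had more than 2.05% equal values. Members, lists and tests were chosen with earlier results of these data known. Of the other lists, genes past the threshold or, with none, the gene with the smallest p are named; ARN2, FRE3, FRE5 and other genes were named after their values were seen. Alternatives covered normalisation, floor, filter, probe sets, trend, array weights, groups fitted and arrays left out. No sequences were used here.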

Additional observations from a re-analysis of the deposited data

How the results depend on the processing

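With galacturonic acid against control, members called numbered 0, and 3 with array weights. With galactose against control they numbered 1, but 0 with no filter, the filter at the median level, array weights and only the 2 groups compared, and 0 to 5 with 1 array left out (5 without galactose array 1; the 1 without galactose array 2 was SIT1, at 1.82). Between galacturonic acid and galactose they numbered 0, and 0 to 3 with 1 array left out. Other iron genes called numbered 1, 2 and 9 in these comparisons. With galacturonic acid against control this became 0 at the 75th percentile and with no filter, 10 with array weights, 2 with only the 2 groups, and 0 to 4 with 1 array left out. With galactose against control it became 1 at a floor of 1 or 50, without the intensity trend and with only the 2 groups, 0 with the median filter and array weights, and 0 to 28 with 1 array left out. Between galacturonic acid and galactose it became 5 at a floor of 50 or with no filter, 3 with the median filter, 2 with array weights, 0 with only the 2 groups, and 0 to 31 with 1 array left out, the highest counts being without galactose array 1.

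Over all genes, calls numbered 121, 473 and 686. They were 58, 178 and 244 with no filter, 774, 16 and 135 with array weights, 256, 38 and 0 with only the 2 groups compared, and 287, 2145 and 2327 without galactose array 1. Two-group fits and left-out arrays rest on fewer arrays. Why the counts moved was not tested.

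The sign turned for FET3 with galacturonic acid against control under array weights (-0.02) and for ARN1 between galacturonic acid and galactose at a floor of 50 (-0.21). With 1 array left out, log2 differences of both signs were seen with galacturonic acid against control for FET3 (-0.14 to 0.59), FIT1 (-0.20 to 0.35), ARN1 (-1.11 to 0.31), ENB1 (-0.04 to 0.06) and FRE2 (-0.23 to 0.14). With galactose against control this held for FET3 (-3.23 to 0.03), FTR1 (-0.78 to 0.62), FIT2 (-2.50 to 1.21), ARN1 (-2.83 to 0.73) and HMX1 (-0.25 to 0.99). Between galacturonic acid and galactose it held for FTR1 (-0.24 to 1.16), FIT2 (-2.56 to 1.15), FIT3 (-0.12 to 1.77), ARN1 (-1.13 to 2.44), SIT1 (-1.13 to 0.41) and HMX1 (-0.25 to 0.98). In a left-out fit with 1 array in a group, that array is assumed to vary like the other groups. No paired analysis was possible because the labels give no culture numbers that tie arrays of different groups together; arrays were numbered in deposit order.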
